A study of Mus musculus with 16 samples.

Results

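The dystrophin glycoprotein complex is described here by 8 genes, Dmd, Utrn, Dag1, Sgca, Sgcb, Sgcd, Sspn and Dtna, taken by symbol from a deposited table of gene counts. All 8 have a row among the 54132 rows of that table, and all 8 passed the filter on low counts that left 16051 genes for testing. The cardiac knockout (cKO) group carried Myh6-Cre and Rbpms fl/fl, so the Cre recombinase came from a promoter that is active in cardiomyocytes, and the control group carried Rbpms fl/fl without Cre. The protein made from Rbpms binds RNA, and the design asks how heart muscle gene expression differs when it is deleted there. RNA came from the heart ventricle of mice at 8 weeks of age, with 4 libraries for each genotype, of which replicate 3 was female and the other 3 were male. Total counts were 20190334 to 24540433 per library. No batch is named in the labels, nor is pooling of animals mentioned, so each p-value below measures the spread between these libraries, which may be technical. The newborn ventricles (P1) of the same design were not analysed here.

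The complex spans the plasma membrane of muscle cells and ties the actin cytoskeleton to the matrix outside the cell. Dystrophin, or in its place the related utrophin, binds actin on the inside. Dystroglycan (Dag1) crosses the membrane and binds laminin through a sugar chain, the sarcoglycans and sarcospan hold dystroglycan in place, and dystrobrevin and the syntrophins gather signalling proteins on the cytoplasmic side. Loss of dystrophin or of a sarcoglycan leaves muscle membranes fragile and causes muscular dystrophy, often with cardiomyopathy, in humans and mice.

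In cKO ventricles 1 of the 8 genes fell, Sgcd, which encodes delta-sarcoglycan, and 1 rose, Dtna, which encodes alpha-dystrobrevin. Sgcd was 1.80-fold lower and Dtna was 1.30-fold higher in cKO than in control. Dmd, Utrn, Dag1, Sgca, Sgcb and Sspn did not pass the test, which was edgeR's quasi-likelihood test, Benjamini-Hochberg adjusted across the 16051 genes, with a threshold of 0.05. The 2 calls make 25% of the members, and 19.3% of all tested genes were called (9.64% higher and 9.64% lower), so the number of calls does not set the complex apart. At an unadjusted p under 0.05, 4 of the 8 members (Sgcd, Dtna, Sgca and Sspn) passed, against 31.5% of all tested genes. Its median log2 fold change (cKO over control, here and throughout) was -0.15, and the median of all tested genes was 0.01.

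The stretch of DNA before the start of Sgcd is shown because Sgcd had the largest change of the 8, beside that of Sgcb, whose protein sits next to delta-sarcoglycan in the same subcomplex and whose mRNA did not pass. Both are the 250 bases upstream of a RefSeq start in GRCm38.p6, read along the minus strand, chr11:47379326-47379575 for Sgcd and chr5:73647738-73647987 for Sgcb. Capitals mark matches to the E-box CANNTG and to the MCAT letters CATTCC on either strand.
Sgcd: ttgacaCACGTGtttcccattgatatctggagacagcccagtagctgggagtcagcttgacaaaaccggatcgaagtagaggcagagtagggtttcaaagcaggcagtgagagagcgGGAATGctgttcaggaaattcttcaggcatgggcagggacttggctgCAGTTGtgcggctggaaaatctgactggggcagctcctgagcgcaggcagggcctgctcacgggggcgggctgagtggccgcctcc
Sgcb: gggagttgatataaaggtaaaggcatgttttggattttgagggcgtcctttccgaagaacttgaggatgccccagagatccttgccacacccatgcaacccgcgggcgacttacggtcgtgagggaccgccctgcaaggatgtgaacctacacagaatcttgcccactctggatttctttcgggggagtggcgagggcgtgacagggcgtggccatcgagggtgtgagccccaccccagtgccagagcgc
The Sgcd window held 2 E-box matches and 1 MCAT match, which do not overlap, and the Sgcb window held none of either. Neither window held GATAA or a CArG box. Among 32851 RefSeq windows of the same length, 66.2% held an E-box, 12.6% the MCAT letters, 22.6% GATAA and 1.5% a CArG box. RefSeq windows were found for 7 of the 8 genes, 10 windows in all, and not for Dtna. The annotated Sgcd gene reaches from 46896253 to 47988969 on chromosome 11, far beyond this start, and gene counts do not show which start the ventricle uses.

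Rbpms itself checks the labels. It measured 31.8 ± 5.82 CPM in cKO libraries and 159.7 ± 42.8 CPM in control libraries (CPM is the count scaled to library depth, mean ± SD, n = 4 each). The highest cKO library, at 38.8 CPM, lay below the lowest control library, at 101.6 CPM. This is a log2 fold change of -2.33 ± 0.20 (standard error, SE; adjusted p = 3.54e-05 by edgeR). Of all genes tested, 1548 rose and 1547 fell; when libraries were scaled by total counts alone, 66.1% of calls were higher, against 50.0% with the TMM scaling used here.

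The makeup of the tissue RNA moved with genotype. Of 6 fibroblast markers 6 rose, and their summed level was 1889 to 2196 CPM in cKO and 909 to 1134 CPM in control libraries, with no marker at 0. Of 8 cardiomyocyte markers 1 fell (Tnni3) and 7 did not pass, and their sum was 33750 to 41415 CPM in cKO and 38823 to 51448 CPM in control libraries. Summed Schwann cell markers were 22.8 to 30.6 CPM in cKO and 14.3 to 20.9 CPM in control libraries, with 1 of 4 higher. Of 6 macrophage markers 1 rose (Mrc1), with sums of 202 to 234 CPM in cKO and 123 to 207 CPM in control libraries. No endothelial marker and no smooth muscle or pericyte marker was called among 6 each. Control replicate 4 stood apart in fast skeletal muscle markers, whose sum was 121 CPM there, 7.26 to 20.7 CPM in cKO and at most 5.93 CPM in the other controls; Myh4 had 1113 counts in it and 0 to 7 in the other 7 libraries. In bulk tissue, fewer cells of a type and less RNA per cell cannot be told apart. The part that these marker differences have in the results below was not tested, except where a value is given.

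Dmd encodes dystrophin, the long actin-binding rod at the core of the complex (chromosome X, 82948870 to 85206141 in GRCm38). It measured 134, 136, 127 and 137 CPM in the 4 cKO libraries, and 159.8, 130.1, 186 and 115 CPM in the 4 control libraries. The cKO values lay close together inside the wider control range, and the groups overlapped. The log2 fold change was -0.15 (95% interval -0.43 to 0.14, adjusted p = 0.486 by edgeR). The gene-level count adds up the long muscle form and any shorter products of internal promoters, and 14 transcripts are annotated for the gene in GENCODE M21. Transcript isoforms were not analysed here.

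Utrn encodes utrophin, the autosomal relative of dystrophin that is known to take its place in dystrophin-deficient muscle (chromosome 10, 12382188 to 12869365). It measured 214, 237, 191 and 178 CPM in cKO libraries, and 216, 225, 208 and 231 CPM in control libraries. The groups overlapped, with both the highest and the lowest value in cKO libraries (log2 fold change -0.10, 95% interval -0.31 to 0.10, adjusted p = 0.505 by edgeR). The ratio of Utrn to Dmd counts, which no library scaling can alter, was 1.53 ± 0.19 in cKO and 1.55 ± 0.40 in control libraries (SD, n = 4 each, not tested). It ran from 1.29 to 1.74 in cKO and from 1.11 to 2.01 in control libraries. The lowest ratio was in the female control library, which had the highest Dmd, and the highest was in control replicate 4, which had the lowest.

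Dag1 encodes both chains of dystroglycan, the matrix receptor of the complex (chromosome 9, 108204634 to 108263958). Its levels were 720.4, 697, 727 and 688 CPM in cKO libraries, and 785, 705, 683 and 963 CPM in control libraries. Control replicate 4 was the high value, and the other controls lay on both sides of the cKO range. The log2 fold change was -0.15 (95% interval -0.38 to 0.08, adjusted p = 0.385 by edgeR), and -0.04 without control replicate 4.

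The sarcoglycans did not move together. Sgcd, delta-sarcoglycan, is a single-pass membrane protein whose loss causes cardiomyopathy in hamsters and mice. It measured 17.7, 16.6, 14.1 and 11.3 CPM in cKO libraries, and 26.6, 27.4, 18.1 and 35.6 CPM in control libraries. Every cKO library was below every control library, though the female control at 18.1 CPM came within a small distance of the highest cKO library. The means were 14.9 ± 2.87 CPM in cKO and 26.9 ± 7.13 CPM in control (SD, n = 4 each), from 262 to 681 counts per library. The log2 fold change was -0.85 ± 0.19 SE (95% interval -1.27 to -0.43, adjusted p = 0.0089 by edgeR), and the CPM values gave p = 0.0286 in an exact permutation test (two-sided), the smallest that 4 against 4 libraries allow. The CPM ranges of the groups did not overlap for 23.5% of all tested genes.

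The fall of Sgcd kept its call without control replicate 4 (log2 fold change -0.69, adjusted p = 0.0242 by edgeR) and without the female control (-1.002). Set against the cardiomyocyte markers, Sgcd measured 0.40 ± 0.06 CPM per 1000 CPM of summed markers in cKO and 0.60 ± 0.14 in control libraries (SD, n = 4 each). On that scale the groups overlapped, since cKO replicate 1 was at 0.47 and cKO replicate 3 at 0.42 while the female control was at 0.41. With the markers as the library scaling in the edgeR fit, a choice made after seeing the data, the log2 fold change was -0.58 (adjusted p = 0.0344). That scaling moved the median of all genes by 0.26.

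Sgcb, beta-sarcoglycan, measured 282, 297, 289.7 and 292 CPM in cKO libraries, and 219, 338, 273 and 268 CPM in control libraries. The controls surrounded the narrow cKO range, and the log2 fold change was 0.08 (95% interval -0.17 to 0.32, adjusted p = 0.682 by edgeR). Sgca, alpha-sarcoglycan, which is made mainly in striated muscle, measured 93.4, 94.8, 133 and 128 CPM in cKO libraries, and 133, 130.1, 125 and 172 CPM in control libraries. The cKO values formed a low pair and a pair within the control range, and the top control value was again replicate 4. Its log2 fold change was -0.32 (95% interval -0.62 to -0.01, adjusted p = 0.140 by edgeR), and -0.21 without control replicate 4. Sgca passed with no filter on low counts (adjusted p = 0.0346) and in none of the other 18 settings tried.

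Sspn encodes sarcospan, a small membrane protein of several passes that binds the sarcoglycans (chromosome 6, 145931641 to 145965223). It measured 440.2, 426, 342 and 495 CPM in cKO libraries, and 528, 566, 402 and 603 CPM in control libraries. The lowest value of each genotype came from its female library, and the groups overlapped only through that of the control. The log2 fold change was -0.30 (95% interval -0.60 to -0.00, adjusted p = 0.153 by edgeR). Sspn passed with sex as a covariate (log2 fold change -0.30, adjusted p = 0.0210) and without the female control (-0.41, adjusted p = 0.0335). An antisense gene, Sspnos, shares 69 exon bases with Sspn and had 12 to 35 counts per library, against at least 8641 for Sspn.

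Dtna encodes alpha-dystrobrevin, a cytoplasmic relative of dystrophin that binds dystrophin and the syntrophins (chromosome 18, 23415135 to 23659715). It measured 156, 151, 127 and 129.8 CPM in cKO libraries, and 100.1, 108, 111 and 116 CPM in control libraries. All cKO libraries lay above all control libraries. The means were 141 ± 14.7 CPM in cKO and 109 ± 6.51 CPM in control (SD, n = 4 each). The log2 fold change was 0.38 ± 0.09 SE (95% interval 0.18 to 0.57, adjusted p = 0.0108 by edgeR), with p = 0.0286 in the exact permutation test. Per 1000 CPM of summed cardiomyocyte markers Dtna was 3.78 ± 0.24 in cKO and 2.43 ± 0.27 in control libraries (SD, n = 4 each), and these ranges did not overlap. An antisense gene that shares 90 exon bases with Dtna, Gm47898, had at most 10 counts in any library.

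**Figure D1:**
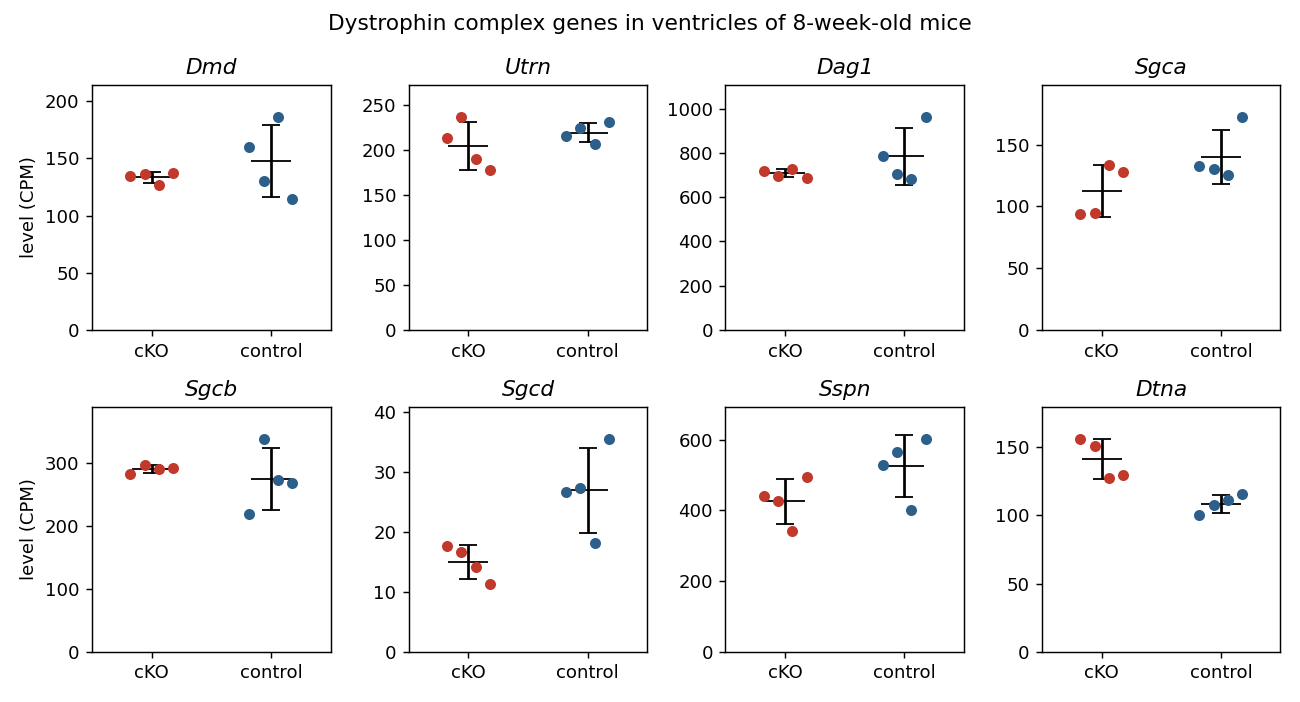
Level of each of the 8 genes in CPM (vertical axes, each from 0) in every cKO and control library; points are libraries, bars the mean ± SD of 4. Sgcd (11.3 to 17.7 CPM in cKO, 18.1 to 35.6 CPM in control) and Dtna (127 to 156 CPM in cKO, 100.1 to 116 CPM in control) are the genes whose groups do not overlap.

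Levels of different genes can be compared only per length, and the scale here is CPM per kilobase of merged GENCODE M21 exons. In cKO libraries the order of the means was Dag1 (111), Sspn (85.2), Sgcb (71.6), Sgca (64.7), Utrn (12.0), Dtna (8.33), Dmd (5.61) and Sgcd (1.81). In control libraries it was Dag1 (123), Sspn (105), Sgca (80.7), Sgcb (67.7), Utrn (12.8), Dtna (6.42), Dmd (6.21) and Sgcd (3.26). Sgca and Sgcb overlapped in both genotypes. Dtna and Dmd overlapped in control libraries (5.92 to 6.82 and 4.83 to 7.83) but not in cKO libraries (7.52 to 9.24 and 5.32 to 5.76). Dag1 and Sspn also overlapped in control libraries only, and Sspn overlapped its next neighbour down in both genotypes (Sgcb in cKO, Sgca in control). Sgcd was the lowest of the 8 in both genotypes on this scale. The order of the low genes depends on the length used, because merged exons of Dtna (16930 bases) and Sgcd (8257 bases) are much longer than their longest coding transcripts (6295 and 2450 bases). Per kilobase of those transcripts Sgcd was at 6.09 in cKO and 11.0 in control libraries, and Dmd at 8.96 in cKO and 9.91 in control libraries. The ranges of Sgcd and Dmd were apart in cKO libraries (Sgcd 4.596 to 7.23, Dmd 8.49 to 9.20) but overlapped in control libraries (Sgcd 7.41 to 14.5, Dmd 7.71 to 12.5), where the female library had Sgcd below Dmd and the other 3 had it above. Dtna and Utrn changed places in cKO libraries on the transcript scale (Dtna 20.2 to 24.8, Utrn 14.3 to 19.2). In control libraries their ranges overlapped on that scale (Dtna 15.9 to 18.4, Utrn 16.8 to 18.7).

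**Figure D2:**
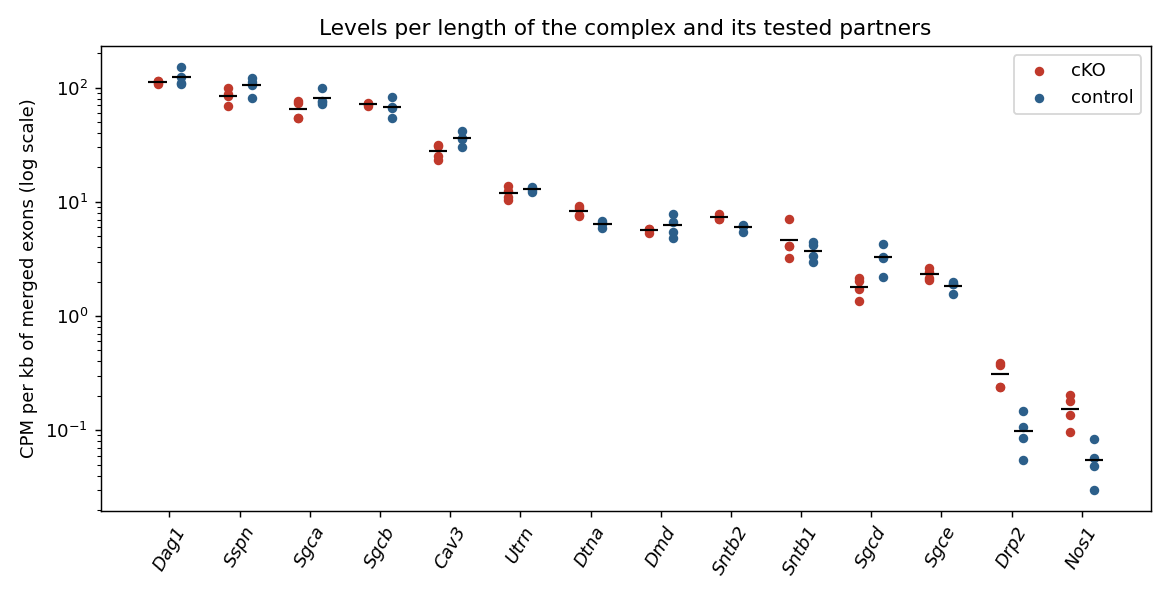
Level per length (CPM per kilobase of merged exons, log scale) of the 8 genes and of their tested partners named in the text, ordered by the control mean; points are libraries, cKO left and control right for each gene, and bars are means of 4. Dag1 (111 in cKO, 123 in control) is the highest, and Drp2 and Nos1 are far below the 8 genes.

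The rest of the complex was measured on a list of 12 further subunits and partners, of which 9 were tested. Sgcz, Sntg1 and Sntg2 had too few counts, at most 24 in any library. Of the 9, 4 rose (Drp2, Nos1, Sntb2 and Sgce), 1 fell and 4 did not pass, with a median log2 fold change of 0.29. The share called was 55.6%, against 19.3% of all tested genes. The count varied with the libraries used. It was 2 higher and 0 lower without cKO replicate 1, 2 higher and 2 lower in males alone, and 3 higher and 1 lower without control replicate 4. The lower call was also lost without control replicate 1 or 2, and without control replicate 3 there were 2 lower calls. The median was 0.03 without cKO replicate 4.

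Sgce, epsilon-sarcoglycan, which takes the place of the alpha form in many tissues outside muscle, measured 24.6 ± 2.76 CPM in cKO and 19.5 ± 1.99 CPM in control (SD, n = 4 each; log2 fold change 0.33 ± 0.11 SE, adjusted p = 0.0488 by edgeR). The Sgce call was lost without any single library other than cKO replicate 2 (adjusted p = 0.0559 to 0.141), and also in males alone, with limma-voom and with no filter.

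Sntb2, beta-2-syntrophin, an adaptor that docks on dystrobrevin and dystrophin, measured 81.6, 73.2, 75.8 and 72.6 CPM in cKO libraries, and 63.8, 63.6, 64.5 and 55.9 CPM in control libraries. The groups did not overlap (log2 fold change 0.29 ± 0.08 SE, adjusted p = 0.0196 by edgeR), and the call was lost without cKO replicate 1 (adjusted p = 0.0712). Sntb1, beta-1-syntrophin, did not pass (log2 fold change 0.31, adjusted p = 0.361 by edgeR).

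Drp2, a dystrophin-related protein best known from Schwann cells, measured 2.03, 3.296, 3.21 and 2.06 CPM in cKO libraries, and 0.906, 0.735, 1.26 and 0.470 CPM in control libraries. It was 3.09-fold higher in cKO (log2 fold change 1.63 ± 0.32 SE, adjusted p = 0.0041 by edgeR), from 9 to 81 counts per library. Summed Schwann cell markers were higher in every cKO library than in every control library, as given above. Nos1, neuronal nitric oxide synthase, which is held at the membrane of skeletal muscle by the complex, measured 1.08, 2.02, 2.26 and 1.504 CPM in cKO libraries, and 0.544, 0.637, 0.337 and 0.941 CPM in control libraries. Its groups did not overlap (log2 fold change 1.49 ± 0.36 SE, adjusted p = 0.0128 by edgeR), and in males alone it missed the threshold (1.12, adjusted p = 0.0734). Cav3, muscle caveolin, which binds dystroglycan, had a log2 fold change of -0.37 and missed the threshold narrowly (adjusted p = 0.0502 by edgeR).

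Enzymes that build the laminin-binding sugar of dystroglycan changed little. Of 18 listed, 17 were tested, 1 fell, 0 rose and 16 did not pass (5.88% called, against 19.3% of all tested genes, median log2 fold change -0.02; 1 higher and 0 lower with cardiomyocyte marker scaling). Pomt1, a subunit of the mannosyltransferase that starts the chain, measured 14.4 ± 0.35 CPM in cKO and 18.6 ± 2.17 CPM in control (SD, n = 4 each; log2 fold change -0.37 ± 0.10 SE, adjusted p = 0.0256 by edgeR). It missed the threshold without cKO replicate 1, 2 or 4 or control replicate 1 or 4 (adjusted p = 0.0545 to 0.0716), in males alone, with total counts only and with cardiomyocyte marker scaling.

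A list of 11 genes covered matrix proteins that bind dystroglycan or the sarcoglycans, with laminin entered by its alpha, beta and gamma chains. Of the 11, 10 were tested, 1 rose, 2 fell and 7 did not pass. The share called was 30%, against 19.3% of all tested genes, and the median log2 fold change was 0.02. With cardiomyocyte marker scaling 4 were higher and 1 lower, with a median of 0.29. Lama2, which supplies the alpha chain of the main laminin of muscle, was not called (log2 fold change 0.01, adjusted p = 0.943 by edgeR). Egflam, pikachurin, a dystroglycan ligand known from the photoreceptor synapse, measured 15.4, 16.5, 13.02 and 16.7 CPM in cKO libraries, and 28.7, 26.9, 28.3 and 22.3 CPM in control libraries. The groups were well apart (log2 fold change -0.79 ± 0.11 SE, adjusted p = 6.28e-04 by edgeR). Lama5, a laminin alpha chain of vessel and epithelial basement membranes, was 146 ± 13.1 CPM in cKO and 217 ± 24.7 CPM in control (SD, n = 4 each; log2 fold change -0.57 ± 0.10 SE, adjusted p = 0.0019 by edgeR), while Lama4 had a log2 fold change of 0.16 (adjusted p = 0.328 by edgeR). With cardiomyocyte marker scaling Lama5 was not called (-0.29, adjusted p = 0.0990) and Lama4 was called higher (0.43, adjusted p = 0.0297). Bgn, biglycan, a matrix proteoglycan that binds sarcoglycans, rose 2.43-fold with the fibroblast markers (log2 fold change 1.28 ± 0.11 SE, adjusted p = 3.51e-05 by edgeR).

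Other linkers of the costamere, the rib-like membrane site where the complex sits, were measured on a further list. Of 19 listed, 18 were tested, 3 rose (Krt8, Synm and Flnc), 2 fell (Tln2 and Ank2) and 13 did not pass (27.8% called, against 19.3% of all tested genes, median log2 fold change 0.10). The lower calls depended on the scaling, since 6 were higher and 0 lower with total counts only, and 9 higher and 0 lower with cardiomyocyte marker scaling. There was 1 lower call in males alone and without cKO replicate 1, 3 or 4 or control replicate 1 or 4. Krt8, a simple keratin, measured 5.92, 4.88, 6.77 and 2.11 CPM in cKO libraries, and 0.363, 0.539, 0.716 and 0.418 CPM in control libraries. It was 9.51-fold higher in cKO from a low level (log2 fold change 3.25 ± 0.38 SE, adjusted p = 2.11e-04 by edgeR), and Krt19, with which dystrophin is known to associate, was not called (-0.18, adjusted p = 0.732). Synm, synemin, an intermediate filament protein that binds dystrophin and dystrobrevin, rose 1.75-fold, with 50.0 ± 14.9 CPM in cKO and 28.6 ± 2.24 CPM in control (SD, n = 4 each; adjusted p = 0.0064 by edgeR).

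Ank2, ankyrin-B, which helps place dystrophin at the membrane, measured 282 ± 21.9 CPM in cKO and 355 ± 22.2 CPM in control (SD, n = 4 each), with groups that did not overlap (log2 fold change -0.33 ± 0.08 SE, adjusted p = 0.0149 by edgeR). It was not called with total counts only (adjusted p = 0.0776), in males alone (0.0817) or with cardiomyocyte marker scaling (0.675). Tln2, talin-2, had a log2 fold change of -0.38 (adjusted p = 0.0314 by edgeR) and overlapping groups. Its call was lost without cKO replicate 1, 3 or 4 or control replicate 1 or 4 (adjusted p = 0.0761 to 0.0889). Flnc, filamin C, which binds delta-sarcoglycan, stood at the threshold (0.39, adjusted p = 0.0499 by edgeR) and lost its call without any single library other than control replicate 4 (0.0699 to 0.137). Itga7, the integrin chain that forms the parallel laminin receptor, was not called (0.19, adjusted p = 0.147 by edgeR).

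**Figure D3:**
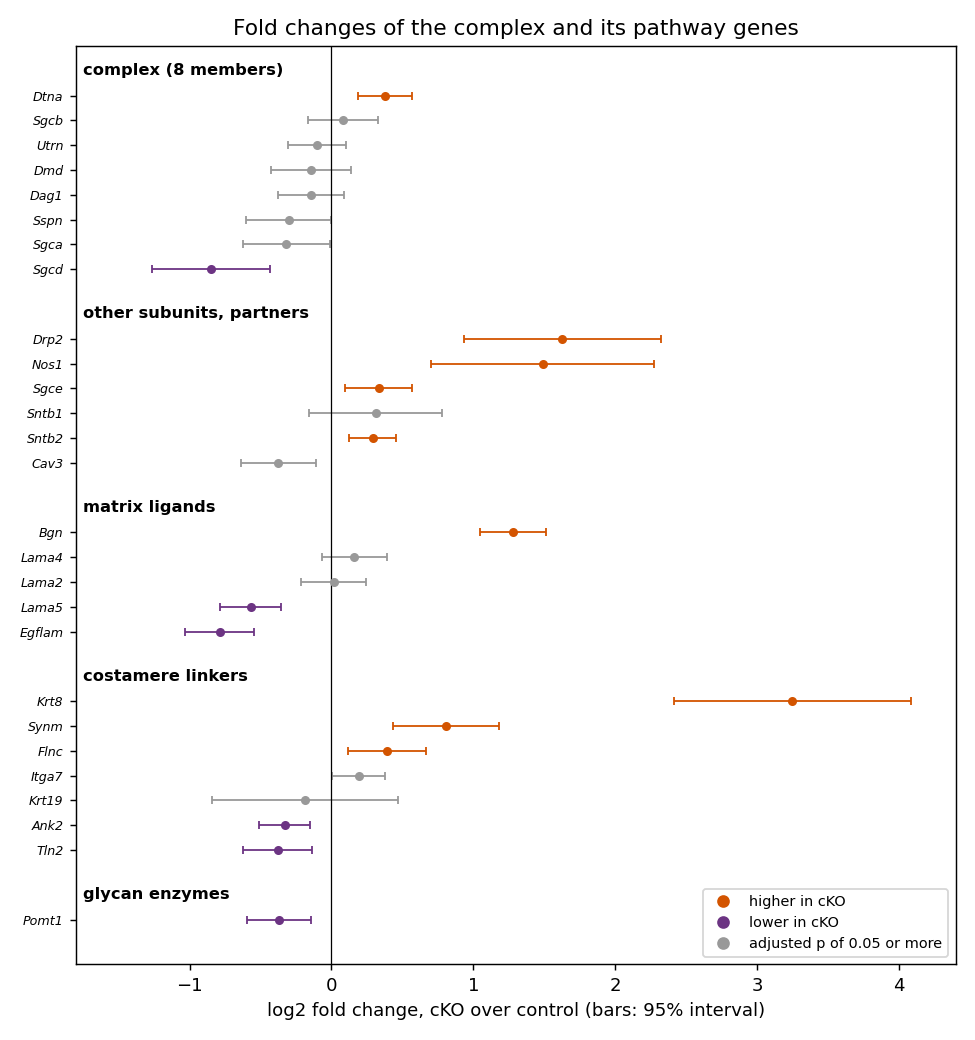
Log2 fold change (cKO over control, horizontal axis) with its 95% interval for the 8 genes and for the tested genes of 4 pathway lists that the text names; orange marks genes called higher, purple called lower and grey an adjusted p of 0.05 or more. Krt8 (3.25), Drp2 (1.63), Nos1 (1.49) and Bgn (1.28) lie far to the right, while Sgcd (-0.85) lies farthest to the left.

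The genes most like Sgcd across the 8 libraries were Crybg3, Snapc2 and Tmem51, with root-mean-square differences of centred log2 CPM of 0.15, 0.20 and 0.20, among 14026 genes with a median of 0.55. For Dmd they were AV026068, Tmem170 and Sfxn5, with differences of 0.07, 0.08 and 0.08 against a median of 0.29. RBPMS is known to bind RNA at pairs of CAC, so such pairs (CAC and a second CAC after 1 to 12 bases) were counted on the sense strand of the longest coding transcript of each gene. Sgcd held 6 pairs, or 2.45 per kilobase, and Dtna held 23, or 3.65 per kilobase, while the median of 13534 tested genes was 2.84 per kilobase. Sgca had 7.54 per kilobase, above 97.4% of those genes, and Dag1 had 5.12. Dmd, Utrn, Sgcb and Sspn had 3.29, 1.86, 1.32 and 2.00 per kilobase. Introns, where many splicing signals lie, were not searched, and a match in a transcript does not show binding.

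**Figure D4:**
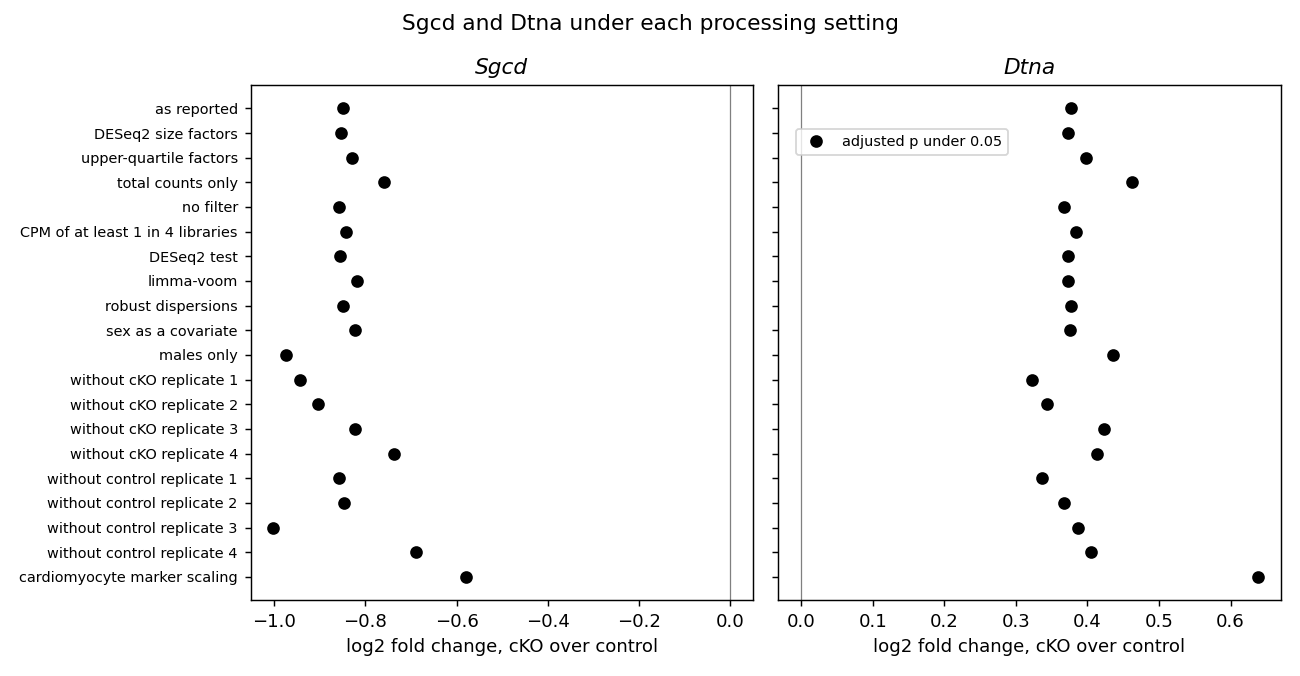
Log2 fold change (cKO over control) of Sgcd and Dtna as reported and in each of 19 other processing settings; every point has an adjusted p under 0.05. Sgcd stays between -1.002 and -0.58, and Dtna between 0.32 and 0.64.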

How the data were processed

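The authors deposited raw read counts by gene symbol in a single table with a column for each library. Per the labels' protocols, libraries were stranded mRNA libraries. Tools listed in the submitters' processing notes, without roles, include featureCounts 1.6.0 and HISAT2 2.0.4, and the builds listed are mm10 and GRCm38. Annotation, strand setting and multi-mapping rule: not given in the sources used here. Overlapping genes may therefore share reads.

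From these counts, 24 rows with a number in place of a symbol (0.115% to 0.132% of counts) were dropped. The comparison of cKO with control used edgeR 4.0.16 in R 4.3.3 with limma 3.58.1: glmQLFit and glmQLFTest, genotype as the only term, TMM scaling, filterByExpr, two-sided. The SE of a log2 fold change is its size divided by the square root of F. CPM are TMM-scaled. A CPM of 1 is about 19 to 25 reads. The script was tested on simulated counts. It recovered 35.8% of 67 genes given a 1.5-fold change, 74.6% of 67 at 2-fold and 93.9% of 66 at 4-fold, among 16051. Far fewer genes were changed there than the 3095 called in the data. The simulated spread followed the trend with level and not each gene's own spread. These shares are therefore not the power of the comparison reported here, though a small change can miss the threshold. Libraries of 1 genotype differed by a chi-square of 7.09 to 31.2 per degree of freedom, so none were duplicates.

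Members and gene lists were chosen with earlier results of these data known. Named genes are the 8 members, up to 4 genes per list with the smallest adjusted p, and the called genes of the list of other subunits. Cav3, Sntb1, Lama2, Krt19, Flnc and Itga7 were named after their values were seen. Some listed genes are counted in their lists but not reported singly here. Alternatives were other scalings (DESeq2 1.42.0 size factors, upper quartile, total counts), other filters, DESeq2, limma-voom, robust dispersions, sex as a covariate, males only and each library left out. Positions and exon lengths are from GENCODE M21 (98.0% of symbols found), and promoter sequence is from RefSeq, GRCm38.p6.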

Additional observations from a re-analysis of the deposited data

Results flagged for a closer look

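In control replicate 4, Sgca stood far from the other controls at 172 CPM, where the nearest was 133 CPM and the lowest 125 CPM. In the same library Sntb2 was low, at 55.9 CPM, where the other controls were at 63.6 to 64.5 CPM. Both gaps exceeded Dixon's 95% critical value for 4 samples, with 0.84 and 0.89 of the group's range. Among 50 groups examined 2 were so marked, and chance marks about 1 in 20. This library also held the fast skeletal muscle marker counts described above. Whether these belong together was not tested. Without it, Sgcd and Dtna kept their calls.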

How the results depend on the processing

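Sgcd and Dtna kept their direction and their call in all 19 alternatives, Sgcd with log2 fold changes of -1.002 to -0.58 and Dtna of 0.32 to 0.64, and 1 member was called higher in each. The number of members called lower was 2 with no filter on low counts (with Sgca), 2 with sex as a covariate and 1 to 2 with single libraries left out (with Sspn, without control replicate 3). Genes called over the whole table were 3095 as reported and 2222 to 2870 with single libraries left out. The difference in the log2 ratio of Utrn to Dmd between cKO and control was 0.01, and -0.14 to 0.15 with single libraries left out. With cardiomyocyte marker scaling 89.2% of calls were higher, and Dmd, Utrn and Dag1 had log2 fold changes of 0.11, 0.15 and 0.14 without being called. The causes of these changes were not tested. No paired analysis was possible because the labels give no number that pairs libraries across genotypes. Precision is limited by 4 libraries per genotype, and for Nos1, Drp2 and Krt8 also by low counts.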
